A study of Mus musculus with 18 samples.

Results

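RNA from nuclei of BV2, a mouse microglial cell line made by immortalisation, was compared between 24 h and 12 h of exposure to 10 µM oxyhemoglobin, the oxygen-carrying form of hemoglobin that reaches brain cells after a bleed. The comparison rests on 6 of the 18 libraries of the study, 3 from nuclei at 12 h and 3 from nuclei at 24 h. The other libraries came from nuclei of untreated cells (0 h) and from the cytoplasm at 0, 12 and 24 h. All groups were the same cell line in the same medium, and no untreated cells harvested beside the 12 h or 24 h cultures are among the samples, so hours of oxyhemoglobin and hours in culture cannot be told apart. Nuclei were pelleted after lysis in a hypotonic buffer with NP-40 and washed, per the labels' protocols. The labels' treatment protocol speaks of 1 replicate as treated, and no label says whether the 3 libraries of a group came from separate cultures.

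The values are group means. Each deposited column is the mean count of 3 libraries, so no spread between replicates, no SD and no p-value can be given, and no difference was checked against replicate error. Levels are CPM, counts scaled to a library total of 1000000 after TMM normalisation (trimmed mean of M-values) across the nuclear columns, and where 3 levels are listed they are those at 0, 12 and 24 h. Each log2 ratio is 24 h over 12 h and is followed in brackets by a 95% exact (Clopper-Pearson) interval from the summed reads of the 3 libraries, which covers counting error only. Genes were called, as higher or lower at 24 h, if the levels differed at least 2-fold and the interval left out 0. Of 55487 genes in the table, 16392 had a mean count of at least 10 at 12 h or 24 h and were compared.

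Nuclear RNA holds transcripts that are being made, spliced or retained, and it answers to a change in transcription before the cytoplasmic pool does. In microglia, the resident macrophages of the brain, inflammatory stimuli switch on cytokine genes through NF-kB and a second wave of antiviral genes through type I interferon and STAT proteins, and both waves normally wane. Hemoglobin also carries heme, which induces the heme-degrading enzyme Hmox1 and antioxidant genes through NRF2.

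Most nuclear transcripts stood at similar levels at the 2 times. The median log2 ratio over the 16392 genes was -0.02, the middle 50% lay between -0.23 and 0.20, and 97.3% of genes were within 2-fold. Called genes numbered 448 (2.73%), 268 higher at 24 h (1.63%) and 180 lower (1.1%). Calls were most frequent where reads were few. Among 2080 genes with a mean count under 15 over both times, 7.69% were called higher and 4.57% lower, against 0.115% and 0.363% of 6062 genes with 100 to 1000 counts. With a mean of at least 5 CPM, 104 of 12327 genes were called (0.844%), 52 higher (0.422%) and 52 lower (0.422%). The lower calls at these levels were led by cytokine, interferon-response and matrix metalloproteinase genes, and the higher calls held many small or unnamed noncoding RNAs. The split of calls moved with the scaling: 59.8% were higher with TMM, 42.7% with total counts and 8.59% with the deposited TPM, under which the median of all genes moved by -0.23.

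Depth was similar in both groups. The 3 libraries together held 15899566 counts at 12 h and 16031875 at 24 h. An unnamed gene, ENSMUSG00000118642, took 16.3% of counts at 12 h and 22.1% at 24 h. The microglial origin of the RNA was checked with 12 markers of microglia and macrophages, of which 9 had a mean count of at least 10 at both times and whose summed level was 952 CPM at 0 h, 874 at 12 h and 789 at 24 h. Of the 10 compared between the 2 times none was called, 8 had ratios below 0 and the median was -0.25, with Adgre1, the macrophage receptor F4/80, at a log2 ratio of -0.95 (-1.20 to -0.70); a part of this in the results on inflammatory genes was not tested. Of 20 markers of other brain cells 4 reached that count, with a summed level of 19.2, 22.5 and 23.3 CPM, and 9 had no read at 12 h or 24 h. The fibroblast and leukocyte list summed to 5.21, 4.67 and 4.91 CPM. A list of erythroid genes summed to 12.2, 14.1 and 11.9 CPM. Most of that was Alas2, at 11.3, 13.8 and 11.4 CPM, whereas the 4 globin genes had no reads at 12 h or 24 h. In bulk RNA, fewer cells with a transcript and less transcript per cell cannot be told apart.

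Interleukin-1, interleukin-6 and G-CSF transcripts, all raised at 12 h over untreated cells, were lower in nuclei at 24 h. Among 24 compared members of a list of NF-kB-driven cytokines and enzymes, 5 were lower (Il1b, Il1a, Il6, Csf3 and Edn1) and none higher, against 1.1% and 1.63% of all genes, and the median log2 ratio was -0.64 against -0.02 over all genes. Il1b, which encodes the secreted pro-inflammatory cytokine interleukin-1 beta, measured 0.909 CPM at 0 h, 102 at 12 h and 24.9 at 24 h, a log2 ratio of -2.04 (-2.21 to -1.87), so that 24.4% of its 12 h level was left. Il1a, the gene of interleukin-1 alpha, an alarmin of the same family, lies like Il1b on chromosome 2 (Il1a at chr2:129299610-129309972, Il1b at chr2:129364570-129371139, GRCm38) and stood at 3.88, 259.9 and 92.8 CPM through the 3 times, a log2 ratio of -1.49 (-1.58 to -1.40). Il6, an acute-phase and neuroinflammatory cytokine, measured 1.45 CPM at 0 h, 65.5 at 12 h and 23.4 at 24 h, and its ratio was -1.48 (-1.66 to -1.30). Csf3 encodes G-CSF, the growth factor of neutrophils, and its nuclear level of 5.63 CPM at 0 h, 1011 at 12 h and 438 at 24 h gave -1.21 (-1.25 to -1.16). Edn1, the gene of the vasoconstrictor peptide endothelin-1, measured 0.424 CPM at 0 h, 8.50 at 12 h and 4.16 at 24 h, a ratio of -1.03 (-1.49 to -0.58). In these 5 genes the 12 h column held the highest of the 3 levels, and the 24 h level was still above the untreated one.

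Other members of the list were not called. Ptgs2, which encodes the inducible cyclooxygenase COX-2, measured 86 CPM at 0 h, 990.2 at 12 h and 497 at 24 h, and its 24 h level was 50.2% of that at 12 h, just short of the 2-fold rule. Acod1, which makes itaconate in activated macrophages, stood at 243 CPM at 0 h, 3605 at 12 h and 1963 at 24 h, a ratio of -0.88 (-0.90 to -0.86). Il1rn, the natural antagonist of the interleukin-1 receptor, was at 13.1, 114 and 61.7 CPM with a log2 ratio of -0.89 (-1.01 to -0.77). Tnf, a cytokine of the early inflammatory response, measured 4.06 CPM at 0 h, 28.3 at 12 h and 29.9 at 24 h with a ratio of 0.08 (-0.11 to 0.28), and Lta, its neighbour in the same family, had a log2 ratio of 0.19 (-0.07 to 0.45). Nos2, the inducible nitric oxide synthase, was the list's member with the highest ratio, 0.69 (0.56 to 0.83), from 7.09, 45.9 and 74.1 CPM, which was under 2-fold. Of the 24 members 18 had ratios below 0 and 6 above it. Because the ratio of 12 h to 0 h and the ratio of 24 h to 12 h share the 12 h column, the levels at 3 times are given side by side and no relation between those ratios was computed.

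**Figure D1:**
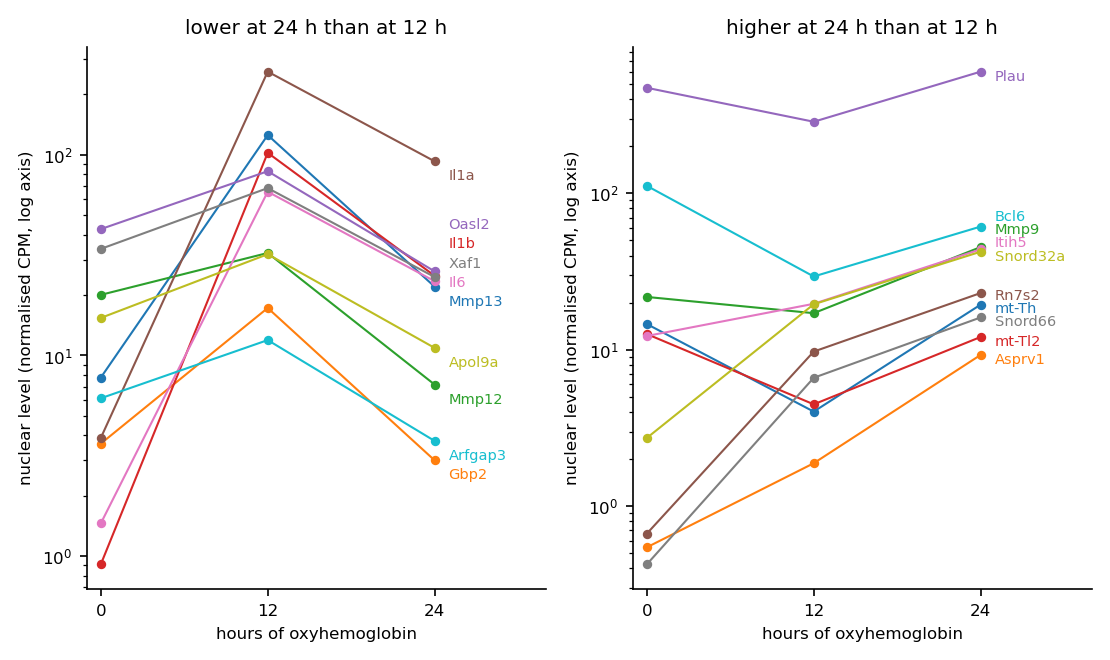
Nuclear levels in normalised CPM (log axis) at 0, 12 and 24 h of oxyhemoglobin for the 10 leading genes lower at 24 h (left) and 10 of the leading genes higher at 24 h (right), each point the mean of 3 libraries with no error bar because each column is a group mean. The left genes have their highest point at 12 h, whereas on the right mt-Th, mt-Tl2, Mmp9, Plau and Bcl6 have their lowest point at 12 h and Snord66, Rn7s2 and Asprv1 increase at each step.

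All 10 compared chemokine genes had ratios below 0, with a median of -0.36, and 2 were called lower, against 1.1% of all genes. Cxcl10, an interferon-inducible attractant of T cells, measured 0.969 CPM at 0 h, 6.23 at 12 h and 2.66 at 24 h, a ratio of -1.23 (-1.80 to -0.68). Cxcl2, a neutrophil attractant, measured 0.485 CPM at 0 h, 12.6 at 12 h and 6.13 at 24 h, a ratio of -1.04 (-1.41 to -0.67). The monocyte attractants Ccl7 and Ccl2 stood at 54.7, 1457 and 985 CPM and at 12.5, 95.1 and 75.9 CPM, with ratios of -0.56 (-0.59 to -0.53) and -0.33 (-0.44 to -0.21). Ccl3 and Ccl4, the macrophage inflammatory proteins, were nearly level at -0.10 and -0.02. Chemokine transcripts therefore covered ratios from -1.23 to -0.02 with every member below 0.

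Regulators of the same pathway had smaller differences. Of 18 subunits and feedback inhibitors of NF-kB 1 was lower, against 1.1% of all genes, and the median was -0.28. The called member was Traf1, a signalling adaptor of TNF receptors, at 13.5 CPM at 0 h, 61 at 12 h and 28.3 at 24 h, a ratio of -1.11 (-1.28 to -0.94). Tnfaip3, which encodes the ubiquitin-editing inhibitor A20, was at 12.1, 39 and 23.8 CPM with a log2 ratio of -0.72 (-0.91 to -0.52), and Nfkb2, the precursor of the p52 subunit, at -0.61 (-0.94 to -0.28). None of 16 genes on a list of inflammatory mRNA decay factors was called (median -0.10), against 2.73% of all genes. The list also holds members with other roles, such as Elavl1. Its member Zc3h12a, the endonuclease Regnase-1 that cleaves Il6 mRNA, was at 32.4, 123 and 84.1 CPM with a log2 ratio of -0.55 (-0.65 to -0.44). Outside the lists, Bcl2a1d, a BCL-2 family survival gene with close paralogs, stood at 14, 57.4 and 21.9 CPM, a ratio of -1.39 (-1.58 to -1.20). Cybb, the catalytic subunit of the phagocyte NADPH oxidase, measured 443 CPM at 0 h, 887 at 12 h and 393 at 24 h, a ratio of -1.18 (-1.22 to -1.13), and returned to 44.3% of its 12 h level.

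The type I interferon response was the list with the most genes called lower. Of 46 compared members 14 were lower and none higher at 24 h, against 1.1% and 1.63% of all genes. Of the 46 ratios 45 were below 0, and the median was -0.82 against -0.02 over all genes. The exception in sign was Herc6, an ISG15 ligase, at 0.07 (-0.12 to 0.25). Oasl2, a 2'-5'-oligoadenylate synthetase-like protein, measured 42.6 CPM at 0 h, 82.9 at 12 h and 26.2 at 24 h, a ratio of -1.66 (-1.83 to -1.49). Xaf1, an interferon-induced pro-apoptotic factor, was at 34, 68.3 and 24.6 CPM with a log2 ratio of -1.47 (-1.65 to -1.30). Ifi211, a member of the IFI200 family of DNA sensors, was at 14.4, 38.4 and 14 CPM with a log2 ratio of -1.46 (-1.69 to -1.23). The IFIT genes, whose proteins bind foreign RNA, split: Ifit3 at 5.21, 31 and 12.5 CPM had a log2 ratio of -1.31 (-1.56 to -1.06) and Ifit1 at 10.7, 44.3 and 20.3 CPM had a log2 ratio of -1.13 (-1.33 to -0.93), whereas Ifit2 at 46.8, 91.3 and 74.3 CPM had a log2 ratio of -0.30 (-0.41 to -0.18) and was not called. Ranked by ratio, the lowest 3 members at 24 h stood below their untreated level (Oasl2, Xaf1) or close to it (Ifi211).

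The factors that carry interferon signals into the nucleus were lower as well. Irf7, the transcription factor that amplifies interferon production, measured 16.4 CPM at 0 h, 25.1 at 12 h and 11.2 at 24 h, a ratio of -1.17 (-1.44 to -0.90). Stat2, a component of the ISGF3 complex that binds interferon-response promoters, was at 12.1, 25.9 and 12.7 CPM with a log2 ratio of -1.02 (-1.28 to -0.77). Its partner Irf9 had a log2 ratio of -0.62 (-0.84 to -0.40), which was under 2-fold. Rsad2, the antiviral enzyme viperin, measured 19.3 CPM at 0 h, 44.8 at 12 h and 20.0 at 24 h, a ratio of -1.17 (-1.37 to -0.97). Isg15, a ubiquitin-like modifier, was at 10.9, 64.8 and 33 CPM with a log2 ratio of -0.97 (-1.13 to -0.82), just under 2-fold. Among the 14 called members, levels at 24 h ran from 31.7% to 49.2% of those at 12 h.

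Interferon-induced GTPases, which attack membranes of intracellular pathogens, had 2 of 7 members lower, against 1.1% of all genes. All 7 ratios were below 0, with a median of -0.83 (-0.47 with the deposited TPM, when that of all genes was -0.25). Gbp2, a guanylate-binding protein, had the lowest ratio among genes with a plain symbol, -2.52 (-3.02 to -2.06), from 3.63 CPM at 0 h, 17.3 at 12 h and 3.00 at 24 h. Its 24 h level was below the untreated one, but its log2 ratio of 24 h over 0 h, -0.28 (-0.87 to 0.31), had an interval that included 0. Gbp7 at 8.84, 30.7 and 17.2 CPM and Irgm1 at 17.4, 52.7 and 39 CPM had ratios of -0.83 (-1.06 to -0.61) and -0.43 (-0.59 to -0.28), under 2-fold. Antigen presentation by MHC class I, which interferon also raises, held no called gene among 20, but 19 ratios were below 0 with a median of -0.27, and the proteasome activator genes Psme2 and Psme1 had log2 ratios of -0.93 (-1.36 to -0.51) and -0.78 (-1.11 to -0.46). None of 19 interferon and STAT regulators was called (median -0.26). Socs3, the feedback inhibitor of cytokine receptors, was at 47.1, 317 and 229 CPM with a log2 ratio of -0.47 (-0.53 to -0.41).

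Promoter sequence was read for the called genes because interferon-response genes share a known element, the ISRE (searched on both strands as a GAAA half-site, 2 bases of any kind and a further GAAA). RefSeq promoter windows of 300 bases (250 before to 50 after the start, GRCm38.p6) were found for 8564 of 10694 compared protein-coding genes, 8409 by symbol and 155 by gene ID. Of these genes 75 were lower and 91 higher. An ISRE match lay in 17 of the 75 lower genes (22.7%), in 1 of the 91 higher genes (1.10%), in 3.15% of all compared genes and in 3.44% of all 32851 windows in the table. The windows below show the element in 6 lower genes with different roles: Ifit3 (chr19:34583279-34583578 (plus strand)) and Ifit1 (chr19:34640639-34640938 (plus strand)), which carry 2 matches each, Ddx60 (chr8:61927837-61928136 (plus strand)), an RNA helicase of the antiviral response with 2 matches, Gbp2 (chr3:142620413-142620712 (plus strand)) with 1, Cybb (chrX:9469275-9469574 (minus strand)) with 3, and Mmp13 (chr9:7272264-7272563 (plus strand)) with 1. Capitals mark the ISRE matches, and each window is written 5′ to 3′ on the strand of its gene.
Ifit3: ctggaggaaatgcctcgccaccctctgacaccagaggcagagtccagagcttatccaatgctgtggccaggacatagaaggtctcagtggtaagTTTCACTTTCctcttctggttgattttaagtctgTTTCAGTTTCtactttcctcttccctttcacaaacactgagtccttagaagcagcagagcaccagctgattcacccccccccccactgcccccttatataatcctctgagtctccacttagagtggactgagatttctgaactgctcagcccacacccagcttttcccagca
Ifit1: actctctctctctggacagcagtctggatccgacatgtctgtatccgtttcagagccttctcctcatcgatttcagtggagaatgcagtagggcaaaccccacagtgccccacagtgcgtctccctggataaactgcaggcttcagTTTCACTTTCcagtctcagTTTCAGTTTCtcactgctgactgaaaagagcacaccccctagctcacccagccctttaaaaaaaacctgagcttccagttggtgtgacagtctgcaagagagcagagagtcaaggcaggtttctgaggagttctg
Ddx60: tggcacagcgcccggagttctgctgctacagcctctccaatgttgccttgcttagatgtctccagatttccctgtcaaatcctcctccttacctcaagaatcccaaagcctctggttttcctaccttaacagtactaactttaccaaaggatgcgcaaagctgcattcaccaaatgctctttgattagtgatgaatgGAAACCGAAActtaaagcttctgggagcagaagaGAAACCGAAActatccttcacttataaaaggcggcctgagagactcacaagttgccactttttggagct
Gbp2: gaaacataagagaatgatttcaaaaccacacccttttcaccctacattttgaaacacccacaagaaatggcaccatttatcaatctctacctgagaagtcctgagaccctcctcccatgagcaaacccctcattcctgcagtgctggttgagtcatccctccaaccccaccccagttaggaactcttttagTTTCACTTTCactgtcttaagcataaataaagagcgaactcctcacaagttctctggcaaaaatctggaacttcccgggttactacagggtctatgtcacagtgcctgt
Cybb: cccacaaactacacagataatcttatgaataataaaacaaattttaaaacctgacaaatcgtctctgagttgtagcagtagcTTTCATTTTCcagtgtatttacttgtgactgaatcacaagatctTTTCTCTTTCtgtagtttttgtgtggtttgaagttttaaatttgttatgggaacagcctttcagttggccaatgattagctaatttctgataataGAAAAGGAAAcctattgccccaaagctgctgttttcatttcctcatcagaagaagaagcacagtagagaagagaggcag
Mmp13: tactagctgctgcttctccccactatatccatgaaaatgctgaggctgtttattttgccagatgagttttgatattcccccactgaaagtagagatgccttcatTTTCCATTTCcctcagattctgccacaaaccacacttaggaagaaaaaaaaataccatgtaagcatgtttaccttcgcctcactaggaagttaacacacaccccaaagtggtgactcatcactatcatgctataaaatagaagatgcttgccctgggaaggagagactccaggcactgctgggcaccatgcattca

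Counted with the first transcribed base as 0, the last match began at -122 in Ifit3, -85 in Ifit1, -19 in Ddx60, -59 in Gbp2, -29 in Cybb and -146 in Mmp13. It thus began within 100 bases of the start in 4 of the 6 windows. The element was not limited to the genes of the interferon lists: 7 of 12 lower genes on those lists held it, and 10 of 63 lower genes outside them (15.9%). Genes outside the lists can still be interferon-inducible, as is Cxcl10, which held the element. The 15.9% is therefore not a share among genes without an interferon response. Among genes with a mean of at least 5 CPM, 13 of 38 lower and 0 of 19 higher windows had a match, against 226 of 7180 compared. Other motifs were searched in the same windows on both strands. The AP-1 motif (TGANTCA) lay in 12 of the 75 lower genes (16.0%), 6 of the 91 higher (6.59%) and 4.95% of all compared. The letters of the TATA box (TATAAA) lay in 14 lower genes (18.7%), 8 higher (8.79%) and 7.22% of all. They were counted at any position of the window, for example at -31 in Il1b, -187 in Oasl2 and -229 in Nelfb. Such a match is therefore not always a TATA box at its usual place.

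The kappa-B motif, the site of NF-kB, was in 12 lower genes (16.0%), 6 higher (6.59%) and 9.94% of all compared, Il6, Cxcl2 and Oasl1 among the lower ones. Among genes with a mean of at least 5 CPM it was in 5 of 38 lower and 3 of 19 higher windows, against 729 of 7180 compared. The lower genes thus no longer had the larger share. In the same windows AP-1 was in 10 lower, 1 higher and 343 compared, and the TATA box in 8, 1 and 486. The STAT site GAS (TTCNNNGAA) was in 4 lower (5.33%), 7 higher (7.69%) and 6.77% of all. The cyclic AMP element (TGACGTCA) was in 1 lower, 4 higher and 3.46% of all, and the E-box (CACGTG) in 2 lower (2.67%), 6 higher (6.59%) and 10.5% of all. Matches of 2 motifs overlapped in few windows: ISRE and GAS in 8, kappa-B and GAS in 6, AP-1 and E-box in 10, GAS and AP-1 in 3, CRE and E-box in 2, and ISRE and kappa-B in 1. A match describes the letters in a window and not the binding of a factor.

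**Figure D2:**
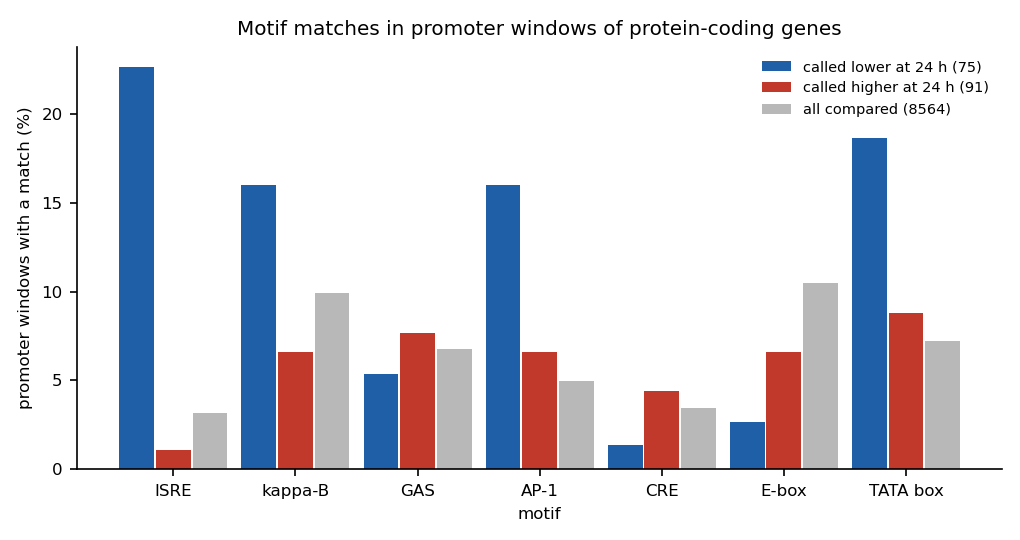
Share of promoter windows with at least 1 match (vertical, percent) for 7 motifs (horizontal), in protein-coding genes called lower at 24 h (75), called higher (91) and all compared (8564). The ISRE bar of the lower genes stands at 22.7% against 1.10% of the higher genes and 3.15% of all, and the lower genes also have the tallest AP-1, kappa-B and TATA box bars. For kappa-B this did not hold with a mean of at least 5 CPM (5 of 38 lower, 3 of 19 higher, not drawn).

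Matrix metalloproteinases, enzymes that cut the extracellular matrix and can open the blood-brain barrier, went in both directions. Of 12 compared members of the list of these enzymes, their activators and inhibitors, 2 were lower and 2 higher, against 1.1% and 1.63% of all genes. Mmp13, a collagenase, measured 7.75 CPM at 0 h, 126 at 12 h and 22 at 24 h, a ratio of -2.51 (-2.69 to -2.34), so 17.5% of its 12 h level was left. Mmp12, the macrophage elastase, measured 20.0 CPM at 0 h, 32.4 at 12 h and 7.16 at 24 h, a ratio of -2.18 (-2.50 to -1.87), and ended below its untreated level. Both lie on chromosome 9 (Mmp13 at chr9:7272514-7283331, Mmp12 at chr9:7344381-7369499). Mmp9, a gelatinase on chromosome 2 (chr2:164940780-164955850), instead measured 21.7 CPM at 0 h, 17.1 at 12 h and 45.3 at 24 h, a ratio of 1.40 (1.20 to 1.62). Plau encodes urokinase, the protease that generates plasmin, and measured 472 CPM at 0 h, 287 at 12 h and 599 at 24 h, a ratio of 1.06 (1.01 to 1.12). The urokinase receptor Plaur had a log2 ratio of -0.33 (-0.50 to -0.17), and the metalloproteinase inhibitor Timp2 one of 0.34 (0.19 to 0.48), neither of them called. Thus collagenase and elastase transcripts were lower and gelatinase and urokinase transcripts higher at the later time.

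Chaperones and folding enzymes of the endoplasmic reticulum had a median of -0.30, with 23 of 27 ratios below 0. Of the 27 genes 2 were lower, against 1.1% of all genes. Pdia6, a protein disulfide isomerase, measured 16.8 CPM at 0 h, 39.8 at 12 h and 14.9 at 24 h, a ratio of -1.42 (-1.65 to -1.20). Selenos, a selenoprotein of the degradation pathway, measured 2.91 CPM at 0 h, 7.91 at 12 h and 2.73 at 24 h, a ratio of -1.54 (-2.09 to -1.01). Manf, a stress-secreted factor, was at 27, 57.1 and 30.7 CPM with a log2 ratio of -0.90 (-1.06 to -0.73). Hspa5, the chaperone BiP, was at 57.5, 87.5 and 55.8 CPM with a log2 ratio of -0.65 (-0.78 to -0.52). Arfgap3, a GTPase activator in vesicle traffic between Golgi and endoplasmic reticulum, was lower at 6.12, 11.9 and 3.75 CPM with a log2 ratio of -1.67 (-2.13 to -1.23), and Apol9a, a lipid-binding apolipoprotein L gene with a close paralog, stood at 15.4, 32 and 10.9 CPM with a log2 ratio of -1.55 (-1.82 to -1.29).

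The genes higher at 24 h differed in how the 12 h level stood to that of untreated cells. Several stood lower at 12 h than at 0 h. Bcl6, a transcriptional repressor of inflammatory genes, measured 112 CPM at 0 h, 29.4 at 12 h and 61.3 at 24 h, a ratio of 1.06 (0.90 to 1.23). Abca6, a transporter of the ABC family, measured 42.6 CPM at 0 h, 6.87 at 12 h and 15.7 at 24 h, a ratio of 1.19 (0.85 to 1.53). Mertk, a receptor for the uptake of dead cells, measured 28.2 CPM at 0 h, 8.69 at 12 h and 17.6 at 24 h, a ratio of 1.02 (0.71 to 1.33). It was the 1 called gene of 19 homeostatic microglial genes (median -0.02), against 1.63% of all genes called higher. The 24 h levels of Bcl6, Abca6 and Mertk were below the untreated ones.

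Other genes stood above their untreated level at 24 h. Asprv1, a retroviral-like aspartic protease, measured 0.545 CPM at 0 h, 1.88 at 12 h and 9.27 at 24 h, a ratio of 2.30 (1.71 to 2.93). Itih5, of the inter-alpha-trypsin inhibitor family that binds hyaluronan, measured 12.2 CPM at 0 h, 19.7 at 12 h and 43.8 at 24 h, a ratio of 1.16 (0.96 to 1.36). Gpr55, a lipid-sensing receptor, was at 1.03, 3.11 and 7.91 CPM with a log2 ratio of 1.34 (0.85 to 1.86). Dusp6, the phosphatase that turns off ERK, was at 7.39, 4.48 and 9.13 CPM with a log2 ratio of 1.03 (0.60 to 1.47). It was the 1 called gene of 22 immediate early genes (median 0.04), against 1.63% of all genes called higher. However, its log2 ratio of 24 h over 0 h, 0.31 (-0.06 to 0.67), had an interval that included 0. Pcyox1l, which encodes a protein related to prenylcysteine oxidase, was at 23.3, 17.8 and 36.8 CPM with a log2 ratio of 1.05 (0.83 to 1.26). These genes were named at a single threshold: with total-count scaling Plau (0.98), Bcl6 (0.98), Mertk (0.93), Dusp6 (0.95), Pcyox1l and Rpph1 (0.93) were under 2-fold, and with the deposited TPM only Asprv1 (1.61), mt-Th (1.956) and mt-Tl2 (1.12) among the named higher genes stayed past it.

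Some short noncoding RNAs were higher at 24 h, but their annotated classes went in both directions. Of 223 small nucleolar RNAs 10 were higher and 6 lower (median 0.13), of 164 small nuclear RNAs 4 and 9 (median -0.07), of 152 microRNA genes 2 and 5 (median -0.14), and of 72 miscellaneous small RNAs 1 and 4 (median -0.06). Over all genes 1.63% were called higher and 1.1% lower. In the list of spliceosomal and RNA polymerase III transcripts 11 of 12 ratios were above 0, 2 genes were higher, and the median was 0.63. Rn7s2, a 7SL RNA of the signal recognition particle, measured 0.666 CPM at 0 h, 9.73 at 12 h and 23 at 24 h, a ratio of 1.24 (0.96 to 1.53), and 49.0% of its exonic bases are shared with other genes, so its assignment is uncertain. Rpph1, the RNA of ribonuclease P, measured 2.48 CPM at 0 h, 30.4 at 12 h and 61.3 at 24 h, a ratio of 1.01 (0.85 to 1.18), with the same uncertainty (73.0% shared). The Y RNAs Rny1 and Rny3 had log2 ratios of 0.88 (0.62 to 1.14) and 0.81 (0.67 to 0.95), and Rn7sk, which restrains RNA polymerase II elongation, stood at 1530.2, 4129.9 and 5797 CPM with a log2 ratio of 0.49 (0.47 to 0.50). Snord66 and Snord32a, box C/D guides of RNA modification, were higher at 0.424, 6.62 and 16.1 CPM with a log2 ratio of 1.28 (0.94 to 1.63), and at 2.73, 19.5 and 42.3 CPM with a log2 ratio of 1.12 (0.92 to 1.32). The median of this list was 0.55 with total-count scaling and 0.31 with the deposited TPM.

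Transcripts of the mitochondrial genome were also above their 12 h level. All 10 compared mRNAs and rRNAs had ratios above 0, none of them 2-fold, with a median of 0.47 (0.16 with the deposited TPM, with 8 of 10 above 0). The highest were 2 subunits of respiratory complex I, mt-Nd6 at 271, 237 and 450.0 CPM with a log2 ratio of 0.93 (0.87 to 0.98) and mt-Nd5 at 893, 845 and 1532 CPM with a log2 ratio of 0.86 (0.83 to 0.89). Of 5 mitochondrial tRNAs 2 were higher, against 1.63% of all genes. The histidine tRNA mt-Th measured 14.6 CPM at 0 h, 4.02 at 12 h and 19.4 at 24 h, a ratio of 2.27 (1.87 to 2.69), and the leucine tRNA mt-Tl2 was at 12.6, 4.48 and 12.1 CPM with a log2 ratio of 1.43 (1.02 to 1.85). The rise was not particular to nuclei. In the cytoplasm the same 10 mRNAs and rRNAs had a median log2 ratio of 0.57, and the same 5 tRNAs one of 0.46 against 0.94 in nuclei. How many mitochondria stayed with the nuclear pellets was not tested. Of 45 nuclear genes of oxidative phosphorylation 1 was higher, against 1.63% of all genes. It was Atp5g1 at 1.28 (0.40 to 2.23) on low counts, and the median of the 45 was -0.07.

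Long intergenic noncoding RNAs (lincRNAs) were called more often than protein-coding genes, mostly as higher and mostly at low counts. Among 583 compared 46 were called (7.89%), 38 as higher (6.52%) and 8 as lower (1.37%), and their median was 0.17. Among 10694 protein-coding genes 212 were called (1.98%), 121 as higher (1.13%) and 91 as lower (0.851%), and the median was -0.03. The medians of the lincRNAs exceeded those of protein-coding genes at each level of counts, with 0.36 against 0.03 under a mean count of 15 and 0.04 against -0.04 between 100 and 1000. Of the 38 higher calls 26 had a mean count under 15 (18.7% of 139 lincRNAs there, against 7.12% of 885 protein-coding genes), and at 100 to 1000 counts 0 of 91 lincRNAs were higher and 1 lower. With the deposited TPM both medians were below 0, -0.12 for lincRNAs and -0.24 for protein-coding genes. Gm10522, a lincRNA, was higher at 4.18, 6.36 and 14.9 CPM with a log2 ratio of 1.23 (0.88 to 1.59), and Gm6093, with no read at 0 h, was lower at 0, 35 and 11.7 CPM with a log2 ratio of -1.58 (-1.84 to -1.33). Of 22 well-known nuclear long noncoding RNAs none was called (median -0.01). Malat1, which sits at nuclear speckles, measured 31161 CPM at 0 h, 34526 at 12 h and 41774 at 24 h, a ratio of 0.27 (0.27 to 0.28) that became -0.03 with the deposited TPM. Neat1, the scaffold of paraspeckles, was at 11412, 19272 and 18074 CPM with a log2 ratio of -0.09 (-0.10 to -0.09).

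Genes of heme and oxidant defence stayed within 2-fold of their 12 h levels, as did 97.3% of all genes. Hmox1 measured 125 CPM at 0 h, 605 at 12 h and 629 at 24 h, a ratio of 0.06 (0.01 to 0.10). Slc7a11, the cystine importer of glutathione synthesis, was at 503, 3328 and 2362 CPM with a log2 ratio of -0.49 (-0.51 to -0.47). Srxn1, which reactivates peroxiredoxins, was at 57.1, 275 and 184 CPM with a log2 ratio of -0.58 (-0.65 to -0.51). None of 30 NRF2 targets (median -0.21, 23 ratios below 0) and none of 26 heme and iron genes (median 0.02, 12 below 0) was called. Over all genes 2.73% were called, a share at which lists of this size can hold none. The iron exporter Slc40a1, ferroportin, was at 185, 129 and 175 CPM with a log2 ratio of 0.44 (0.35 to 0.52). The housekeeping transcripts Actb and Gapdh had log2 ratios of -0.50 (-0.54 to -0.46) and -0.54 (-0.63 to -0.46), below the range of -0.23 to 0.20 that held the middle 50% of genes.

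Mitotic genes lay above the median of all genes without any 2-fold call. Of 40 compared, 33 had ratios above 0 and the median was 0.30, which became -0.01 with the deposited TPM, when the median of all genes was -0.25. Mki67, the proliferation antigen Ki-67, was at 906, 1157 and 1649 CPM with a log2 ratio of 0.51 (0.48 to 0.54), and Bub1b, a spindle checkpoint kinase, at 135, 130.0 and 202 CPM with a log2 ratio of 0.64 (0.55 to 0.72). DNA replication genes had a median of 0.11 (41 compared, -0.17 with the deposited TPM) and ATF4 targets of the integrated stress response 0.15 (28 compared, -0.15 with the deposited TPM), with no call in either list. Chac1, which degrades glutathione, was at 28.7, 32.8 and 52.6 CPM with a log2 ratio of 0.68 (0.52 to 0.85). Lists with no call also included disease-associated microglia (22 compared, median -0.01), lysosome and phagocytosis (35, -0.13), liver X receptor targets (12, -0.09), heat shock proteins (14, 0.00), p53 targets (17, 0.02), glycolysis and hypoxia (27, -0.16), splicing factors (47, -0.17), mRNA export and nuclear pore (44, -0.04), histones (55, -0.01) and circadian clock (16, 0.07). In cholesterol synthesis 1 of 23 was higher, against 1.63% of all genes, namely Mvd at 1.15 (0.28 to 2.08) on low counts. The median of that list was -0.01. Over all genes 2.73% were called in either direction.

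**Figure D3:**
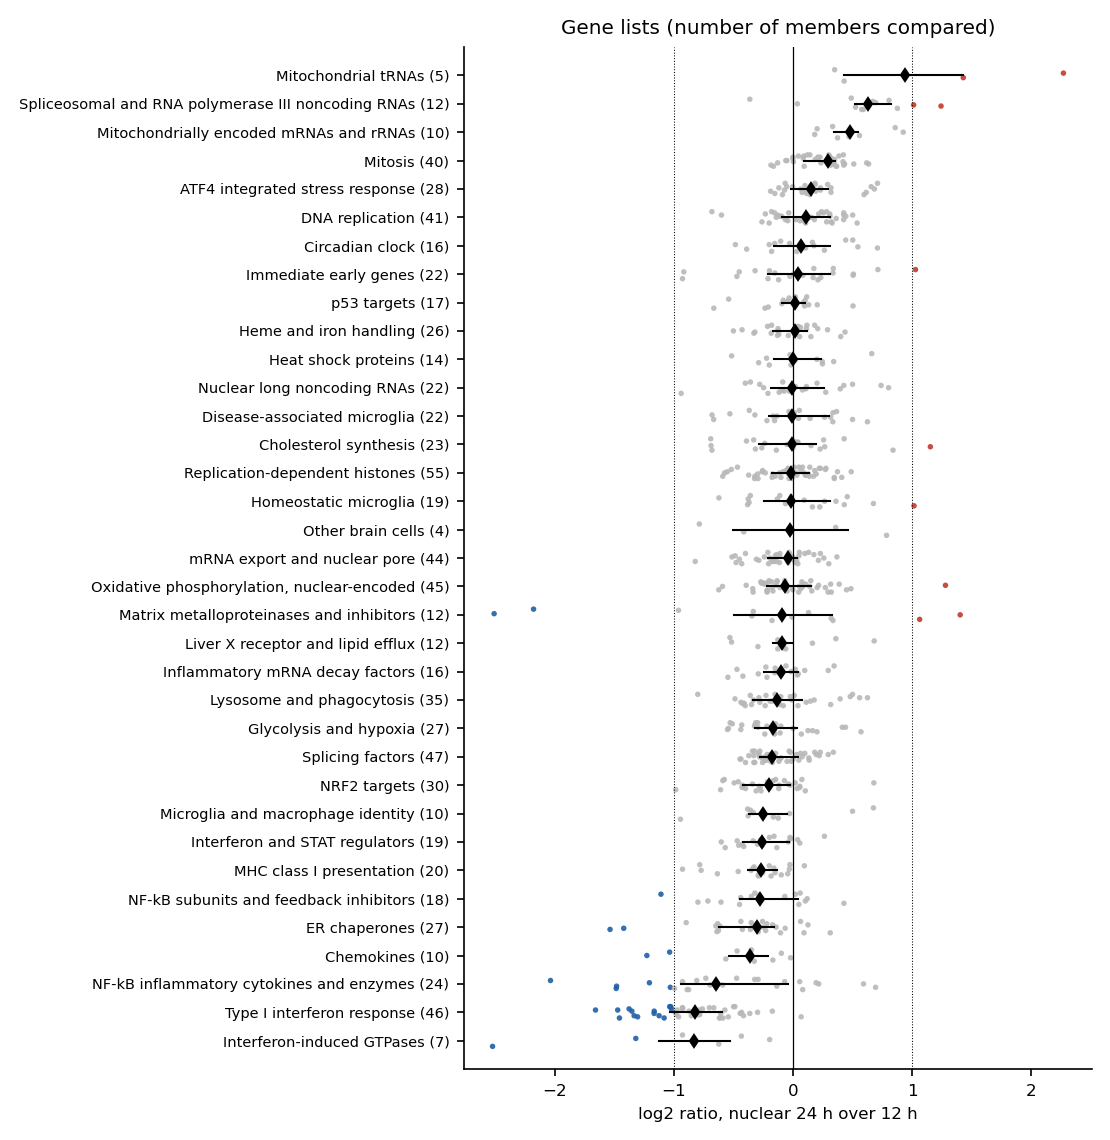
Log2 ratio of nuclear RNA, 24 h over 12 h (horizontal), for every compared member (points) of each gene list with at least 3 members (vertical, number compared in brackets), with red and blue points for genes called higher and lower, black diamonds for medians and bars for the middle 50%. The interferon response, interferon-induced GTPase, NF-kB cytokine and chemokine lists lie left of 0, with medians of -0.83 to -0.36. The 2 lists of mitochondrially encoded RNAs, the joint list of spliceosomal and RNA polymerase III RNAs and the mitosis list lie right of it, with medians of 0.30 to 0.94.

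Lower genes were short. The 91 lower protein-coding genes had a median genomic span of 10296 bases, the 121 higher genes 21269 and the 10482 uncalled genes 24353. Median exonic lengths were 2645, 3302 and 4613 bases, and the median numbers of exons 6, 6 and 9. The called genes also had lower levels, with median 12 h levels of 5.71 CPM for the lower, 1.69 for the higher and 23.9 for the uncalled genes, and a part of length in these calls was not tested. With a mean of at least 5 CPM the spans were 11942 bases for 42 lower, 17215 for 27 higher and 26368 for 8846 uncalled genes.

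AU-rich elements, 3′ UTR sequences that direct rapid mRNA decay in cytokine transcripts, were looked for in the same genes. The nonamer TTATTTATT was in 3 of 90 lower genes (3.33%), 9 of 118 higher (7.63%) and 8.31% of 10605 compared. A pair of overlapping pentamers, ATTTATTTA, which was searched after values were seen, was in 4 lower (4.44%), 5 higher (4.24%) and 6.66% of all. Median 3′ UTR lengths were 696.5, 842 and 1178 bases, and the pentamer ATTTA occurred 1.76, 1.38 and 1.81 times per 1000 bases of 3′ UTR in lower, higher and all compared genes. The sites below are shown because their genes belong to the cytokine and chemokine lists, Il1b at chr2:129364806-129364834 (minus strand) and Cxcl2 at chr5:90905318-90905346 (plus strand) (GRCm38), with the pentamer pair in capitals.
Il1b: ccacttacctATTTATTTAtgtatttatt
Cxcl2: gagttcacttATTTATTTAtctatgtatt

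The cytoplasmic fraction gave a second measure of the same interval in columns that share no library with the nuclear ones. There 498 of 11273 compared genes were called (4.42%), 314 as higher (2.79%) and 184 as lower (1.63%). Over the 10643 genes compared in both fractions nuclei had 177 calls (1.66%). Of these genes, 66 were lower in nuclei (0.62%) and 153 in the cytoplasm, and 29 were lower in both, which is 43.9% of the nuclear and 19.0% of the cytoplasmic set. For higher genes 23 were shared, 20.7% of 111 in nuclei (1.04%) and 8.33% of 276 in the cytoplasm. Across 5277 genes with a mean count of at least 50 in all 4 columns the ratios of both fractions had a Pearson r of 0.54 and a Spearman rho of 0.46, given as a description because genes are not independent replicates.

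Interferon-response medians were alike in both fractions, -0.79 in nuclei and -0.82 in the cytoplasm over 41 genes compared in both. Individual cytokines differed. Il1b had a cytoplasmic ratio of -3.07 (-3.16 to -2.99), from levels, in CPM, of 522 at 12 h and 62.1 at 24 h, and the nuclear ratio exceeded it by 1.03 (0.85 to 1.22). For Il1a the cytoplasmic ratio was -2.08 (-2.12 to -2.05) and the difference 0.60 (0.50 to 0.69). Ptgs2 was called in the cytoplasm at -1.44 (-1.47 to -1.41), with a difference of 0.45 (0.39 to 0.50). In these 3 genes a larger share of the 12 h level was left in nuclei than in the cytoplasm, which was not shown for Il6. Il6 kept 35.8% of its 12 h level in nuclei and 48.3% in the cytoplasm, with a difference of -0.43 (-0.89 to 0.03) whose interval included 0. Over the 22 members of the NF-kB cytokine list compared in both fractions the medians were -0.64 in nuclei and -0.69 in the cytoplasm. Mmp13 at -2.60 (-2.75 to -2.44) and Gbp2 at -2.25 (-2.48 to -2.01) in the cytoplasm had differences whose intervals included 0, of 0.08 (-0.14 to 0.31) and -0.28 (-0.79 to 0.24). Csf3 had -1.40 (-1.43 to -1.37) in the cytoplasm. Its difference of 0.20 (0.14 to 0.25) was in the direction of those of Il1b, Il1a and Ptgs2 but smaller.

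Some nuclear changes had no counterpart of the same size outside the nucleus. Mmp9 had a cytoplasmic ratio of -0.09 (-0.31 to 0.13), and the nuclear ratio exceeded it by 1.49 (1.19 to 1.79). Pdia6 was at -0.17 (-0.67 to 0.33) in the cytoplasm, a difference of -1.25 (-1.78 to -0.73). Cxcl10 had 0.61 (0.04 to 1.20) in the cytoplasm on low levels, in CPM, of 2.50 at 12 h and 3.81 at 24 h, opposite in sign to its nuclear ratio, with a difference of -1.84 (-2.61 to -1.07). Neat1 went the other way, with a cytoplasmic ratio of 0.96 (0.91 to 1.02) and a difference of -1.05 (-1.11 to -0.998). Plau (1.003 (0.94 to 1.06)) and Bcl6 (1.11 (0.93 to 1.29)) were higher in the cytoplasm by similar ratios. The list of spliceosomal and RNA polymerase III transcripts had a cytoplasmic median of -0.15 over the 12 genes compared in both, against 0.63 in nuclei. Over all 10643 genes, the 2 fractions' ratios differed by at least 1 on the log2 scale, with an interval excluding 0, in 521 genes (4.9%), 199 with the nuclear ratio above (1.87%) and 322 with it below (3.03%). Each fraction was scaled within its own columns, so these differences are relative to the trimmed mean of each fraction.

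**Figure D4:**
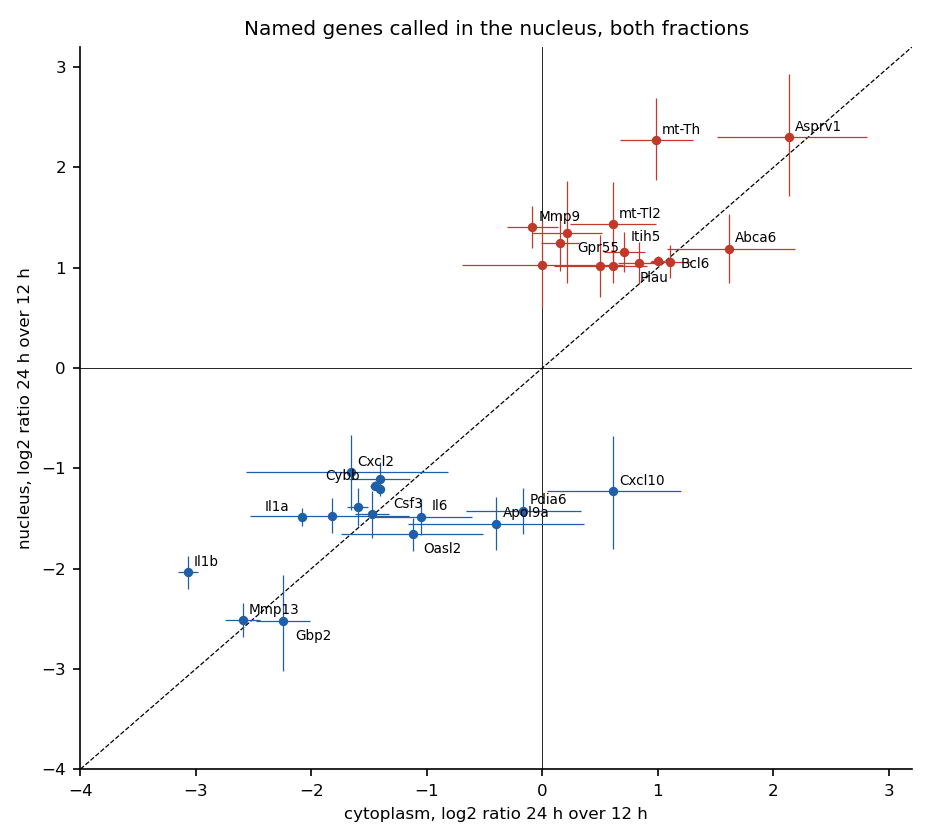
Log2 ratio of 24 h over 12 h in nuclei (vertical) against the cytoplasm (horizontal) for 30 named genes called in nuclei and compared in the cytoplasm, with 95% counting intervals as bars and a dashed line of equal ratios. Il1b lies above the line among the lower genes, Mmp9 and mt-Th lie above it among the higher genes, and Cxcl10, Pdia6 and Apol9a lie far below it.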

How the data were processed

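Sequenced RNA came from nuclei and cytoplasm of BV2 cells after 0, 12 and 24 h of oxyhemoglobin. The submitters' processing notes name HISAT2 2.2.0, featureCounts, DESeq2 and the build GRCm38. How strand was handled and which annotation was counted is not given in the sources used here, so antisense partners cannot be separated. The deposited estimated counts are means: every value times 3 was whole within 0.001, and 34.2% and 34.9% of values in the 12 h and 24 h nuclear columns were not whole. The TPM values are the authors' own and were used only as an alternative scaling, as log2(TPM + 1). No library was left out, and 0 per-sample columns were set aside.

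The planned edgeR test needs per-library counts, so it was replaced by a size comparison: TMM scaling (30% and 5% trimmed) within the 3 nuclear columns, a mean count of at least 10 in either column, a 2-fold threshold and a 95% exact interval from summed reads. It was tested on simulated reads with counting error only and with changes placed outside the low-count genes. The simulation therefore did not cover spread between libraries or the recovery of changes at low counts. Named genes were the 15 leading genes in each direction with a mean of at least 5 CPM (a plain symbol and reads in both columns), ranked by the interval bound nearest 0, up to 4 members of each of 37 lists with the largest absolute ratio, and a fixed set of 12 including Hmox1 and Il1b; other genes were named for their role or after their values were seen. Some genes that the rule names are not reported here. Members, lists and motifs were chosen with earlier results of these data known. Annotation was GENCODE M21 (55227 of 55487 identifiers matched). Computation used scipy 1.17.1, numpy 2.4.6, matplotlib 3.10.9 and pandas 2.3.3 under Python 3.11.15.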

Additional observations from a re-analysis of the deposited data

How the results depend on the processing

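Counts of called genes followed the filter and the threshold. The main counts of 268 higher and 180 lower became 714 and 375 without a filter on low counts, 30 and 43 with a mean count of at least 50, 964 and 791 at 1.5-fold, 35 and 23 at 3-fold, and 52 and 52 with a mean of at least 5 CPM (added after seeing the data). With the deposited TPM the higher genes numbered 22 and the lower 234. Total-count scaling gave 192 and 258, DESeq2 size factors 262 and 187, and leaving out genes that share at least 20% of exonic bases (added after seeing the data) 246 and 159. The cause of these shifts was not tested. Under the 6 alternatives run for lists, the interferon median lay between -0.91 and -0.79 and the NF-kB cytokine median between -0.76 and -0.51. With TPM the median of all genes went from -0.02 to -0.25, and list medians have to be read against it. The interferon median then went from -0.82 to -0.88 and the NF-kB cytokine median from -0.64 to -0.76. The GTPase median went from -0.83 to -0.47, the chemokine median from -0.36 to -0.65 and the MHC class I median from -0.27 to -0.44. The ER chaperone median went from -0.30 to -0.56 and the mRNA decay factor median from -0.10 to -0.37. Most of the 154 named genes were not called and so had no call to lose. With TPM 134 kept their status, 17 lost their call and 3 gained one. The calls lost were those of all named higher genes but Asprv1, mt-Th and mt-Tl2, and those of the lower genes Oas2, Cxcl10 and Cxcl2. With total counts 143 kept their status, 6 lost a call and 5 gained one. With DESeq2 size factors 153 kept it (Ptgs2 became lower). No called gene changed sign. TPM moved the medians of 25 of 35 lists by more than the members' typical counting error. No paired analysis was possible because the deposited columns are group means that carry no replicate. For the same reason leaving out each replicate and the DESeq2 test were not run, and depth limits only counting error, with a median interval width of 0.57 on the log2 scale.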

Other observations

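The genes named here were chosen after their values were seen and stand for no list. Sec24d, which selects cargo in the COPII coat of vesicles leaving the endoplasmic reticulum, measured 12.5 CPM at 0 h, 21.9 at 12 h and 10.6 at 24 h, a ratio of -1.05 (-1.34 to -0.77). Sec23b, its partner in the coat, was at 16.9, 35.3 and 17.2 CPM with a log2 ratio of -1.03 (-1.25 to -0.82), and Sec61g, a subunit of the translocon, at 8.48, 14.1 and 6.95 CPM with a log2 ratio of -1.02 (-1.38 to -0.68). Sec24a and Sec23a, paralogs of the coat subunits, had log2 ratios of -0.20 (-0.29 to -0.11) and -0.20 (-0.47 to 0.08) and were not called. Hp encodes haptoglobin, the plasma protein that captures free hemoglobin, and measured 5.63, 13.1 and 5.18 CPM at 0, 12 and 24 h, a log2 ratio of -1.34 (-1.74 to -0.95) in nuclei and -1.68 (-2.04 to -1.33) in the cytoplasm. Hdc, the histamine-producing decarboxylase, was at 2.36, 13.4 and 4.84 CPM with a log2 ratio of -1.47 (-1.88 to -1.08). Clec4d, a macrophage lectin receptor, was at 24.5, 63.6 and 28.2 CPM with a log2 ratio of -1.17 (-1.34 to -1.01). Gm14023, an annotated processed transcript, was at 1.03, 27.3 and 7.91 CPM with a log2 ratio of -1.79 (-2.10 to -1.49).

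A single small gene had the lowest ratio of the comparison. Gm26444, annotated as a small nuclear RNA at chr12:54729602-54729765 (GRCm38), had mean counts of 0.667 at 0 h, 1308 at 12 h and 2.33 at 24 h, a log2 ratio of -9.06 (-10.37 to -8.01). Whether 1 of the 3 libraries carried these reads cannot be seen in a mean. Rpl30, a ribosomal protein gene with paralogous sequence elsewhere, had a nuclear ratio of -0.36 (-0.46 to -0.25) and a cytoplasmic ratio of 2.24 (2.12 to 2.36), and 24.8% of its exonic bases are shared with other genes.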
